A study of Mus musculus with 12 samples.

Results

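The comparison asks what the zQ175 neo-deleted knock-in allele of Htt does to the mouse striatum when mice with and without cGAS are pooled, 6 knock-in libraries against 6 without the allele. Its members are all 12 libraries of the series, chosen by the genotype in their titles. The HD group carried 1 copy of the knock-in allele, the cGAS-KO;HD group carried it on a cGAS knockout background, the WT group were C57BL/6J mice and the cGAS-KO group lacked cGAS without the knock-in. Each group held 3 mice and 3 libraries of striatal tissue, so the p-values measure the spread between mice. The 6 HD and cGAS-KO;HD mice are called the knock-in mice here, and the 6 WT and cGAS-KO mice those without the knock-in. The 2 controls therefore differ from each other by the cGAS deletion, which was entered as a covariate, so that each knock-in group was weighed against its own cGAS genotype. The knock-in changes the endogenous gene in every cell, and the cell type in which a change arose cannot be read from tissue RNA. The labels name no sex, age, litter or hour of collection.

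The knock-in places an expanded CAG repeat in the first exon of mouse Htt, the lesion of Huntington's disease. The striatum is the region most affected in that disease, and its medium spiny neurons, GABAergic projection cells that integrate dopamine and cortical glutamate, lose the transcripts of their receptors and signalling enzymes long before they die. cGAS senses DNA in the cytosol and signals through STING to interferon genes. The cGAS knockout removes that sensor.

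The libraries held 59195327 to 72765623 counts each, with 26827 to 28348 genes detected. Mitochondrially encoded genes took 5.30% to 11.5% of counts, and the highest share belonged to cGAS-KO 3. The chi-square distance per gene between libraries of 1 group ran from 9.26 to 195. Xist was high in 4 of the 6 knock-in libraries and in 2 of the 6 without, which is why the counts below were also taken with Xist as a covariate. The summed level of 30 cortical projection neuron markers was 850 to 1428 CPM (counts scaled to library size) in the knock-in libraries and 1151 to 3156 CPM in those without, where WT 1 had the lowest value and cGAS-KO 3 the highest. WT 1 lay close to the knock-in libraries in several lists. WT 1 and cGAS-KO 3 are therefore the libraries left out, singly and together, where a result rests on them. They were also the 2 libraries without the knock-in in which Xist was high, at 1252 and 1368 CPM. Fits without both keep no Xist-high library without the knock-in, beside 4 with it, so knock-in and Xist are partly mixed in those fits.

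Htt, on chromosome 5, was lower in every knock-in library. It had 144, 131 and 143 CPM in HD and 126, 137 and 142 CPM in cGAS-KO;HD, against 169, 172 and 179 CPM in WT and 179, 177 and 155 CPM in cGAS-KO. The groups did not overlap, and the pooled log2 change was -0.32 ± 0.05 (standard error, adjusted p = 0.000961). Cgas was near 1 CPM throughout, with 1.13, 1.07 and 1.26 CPM in HD and 1.15, 1.15 and 0.798 CPM in cGAS-KO;HD, against 1.56, 1.35 and 1.32 CPM in WT and 0.877, 0.572 and 0.882 CPM in cGAS-KO. The values of the knock-in libraries and the others overlapped (log2 change 0.05 ± 0.19, adjusted p = 0.905), and counts over the whole gene check the cGAS labels only weakly. Every cGAS-KO library lay below every WT library. However, cGAS-KO;HD libraries at 1.15 CPM lay inside the HD range of 1.07 to 1.26 CPM, so these counts do not show a loss of Cgas in that group. The tissue label held against its markers. Ppp1r1b, the dopamine-regulated phosphatase inhibitor DARPP-32, which was named after its values were seen, had 227 to 472 CPM in the knock-in libraries and 717 to 1052 CPM in those without.

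Pooling changed which genes could be called. Of 21482 genes with at least 10 counts in at least 3 libraries, 2975 (13.8%) passed an adjusted p of 0.05 in the pooled comparison, 1285 (5.98%) higher and 1690 (7.87%) lower in knock-in striatum. The same rule called 870 genes (4.05%) in HD against WT, 301 (1.4%) higher and 569 (2.65%) lower. It called 840 genes (3.91%) in cGAS-KO;HD against cGAS-KO, 305 (1.42%) higher and 535 (2.49%) lower, where the fit also used all 12 libraries to estimate the spread. Those contrasts together called 1209 genes, of which 1158 were among the pooled calls, and 501 were called in both. The remaining 1817 pooled calls (8.46% of tested genes and 61.1% of the pooled calls) were reached in neither 3 against 3 contrast. They are called resolved only by pooling here, and 863 of them were higher and 954 lower. These counts rest on few libraries. The count of HD against WT was 243 without WT 3 and 1902 without cGAS-KO 3, that of cGAS-KO;HD against cGAS-KO was 339 without cGAS-KO;HD 2, and the count resolved only by pooling was 1150 without cGAS-KO 3. The pooled count ran from 2038 without WT 3 to 3745 without WT 1. Conversely, 51 genes were called in a single contrast and not in the pooled one, and 25 of those had opposite signs in the contrasts.

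The gain was in small changes. The median standard error of a log2 change was 0.122 pooled, against 0.174 in each single contrast, and over the 10458 genes above 10 CPM it was 0.0704 against 0.1. The smallest called change had an absolute log2 value of 0.13 pooled, 0.22 in HD against WT and 0.23 in cGAS-KO;HD against cGAS-KO. Below 1.25-fold the pooled comparison called 917 genes, against 55 and 43 in the single contrasts. Between 1.25-fold and 1.5-fold it called 948 against 284 and 272, and at 2-fold or more 476 against 291 and 276. Of all pooled calls 84.0% were under 2-fold.

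**Figure D1:**
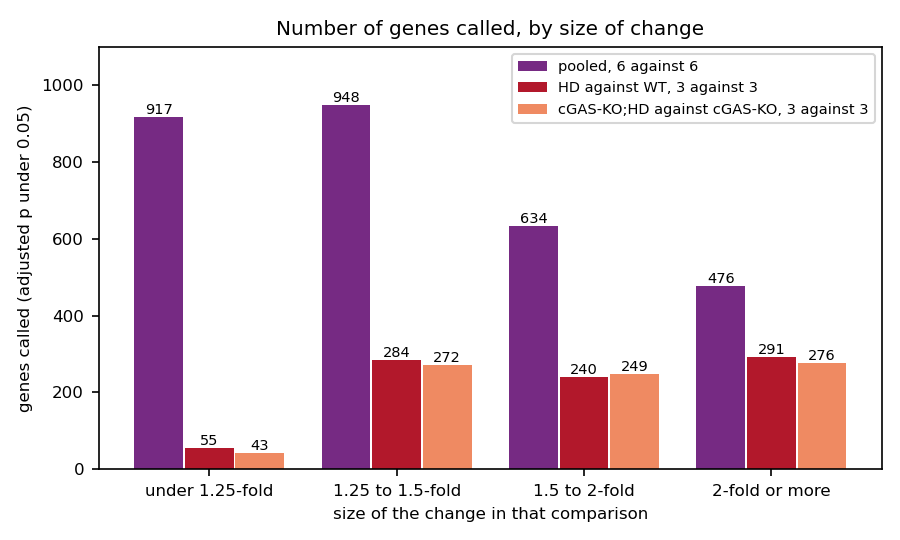
Number of genes called at an adjusted p under 0.05 (vertical axis) by the size of their change (horizontal axis), for the pooled comparison of 6 and 6 libraries and for each contrast of 3 and 3. The bars of the pooled comparison stand highest in every class, with 917 genes under 1.25-fold where the single contrasts have 55 and 43.

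Most small changes seen in 1 cGAS genotype had the same sign in the other. Each contrast was refitted on its own 6 libraries, so that no library was shared. In HD against WT 3347 genes changed by under 2-fold with an unadjusted p under 0.05 and an adjusted p of 0.05 or more. Of these, 3028 (90.5%) had the same sign in cGAS-KO;HD against cGAS-KO, and 1008 (30.1%) had the same sign and an unadjusted p under 0.05 there. For all tested genes those shares were 70.4% and 13.3%. In the other direction 2120 genes of that kind were found in cGAS-KO;HD against cGAS-KO, of which 1987 (93.7%) had the same sign in HD against WT and 1220 (57.5%) also an unadjusted p under 0.05, beside 70.4% and 20.7% of all tested genes. Only 4 and 2 of the genes chosen passed an unadjusted p under 0.05 with the opposite sign. The median size was smaller in the libraries that had not chosen the genes, at 0.21 against 0.29 on the log2 scale for genes chosen in HD against WT and 0.31 against 0.42 for those chosen without cGAS. Genes share libraries and are not independent, so these shares carry no test. Cortical projection neuron markers also ran lower in both contrasts. Their median log2 change was -0.99 in HD against WT and -0.78 in cGAS-KO;HD against cGAS-KO, in the fit of all libraries. The part of cortical RNA in these shares was not tested.

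The interaction of knock-in and cGAS genotype, which asks whether the knock-in effect differs with cGAS, called 1 gene (0.00466% of those tested) with edgeR, 3 with DESeq2 and none with limma-voom, and 621 genes (2.89%) had an unadjusted p under 0.05 with edgeR. The gene was Mid1-ps1, a pseudogene of Mid1 on chromosome Y. It had 6.96, 5.50 and 6.84 CPM in HD and 0.845, 0.742 and 1.08 CPM in cGAS-KO;HD, against 0.490, 0.394 and 0.370 CPM in WT and 0.585, 0.334 and 0.559 CPM in cGAS-KO. The HD libraries alone stood high, and reads of this copy and of Mid1 may have been shared in counting. HD 1 and HD 2, at 6.96 and 5.50 CPM, had almost none of Ddx3y, a gene of chromosome Y, at 0.0287 and 0.0154 CPM. Their Mid1-ps1 counts therefore cannot be taken as reads of chromosome Y, and where they came from was not tested. Without cGAS-KO 3, 2291 genes had an unadjusted interaction p under 0.05 and 1 was called. Without both WT 1 and cGAS-KO 3, 3235 genes had one and 98 were called, so the count of interaction calls rests on those libraries.

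**Figure D2:**
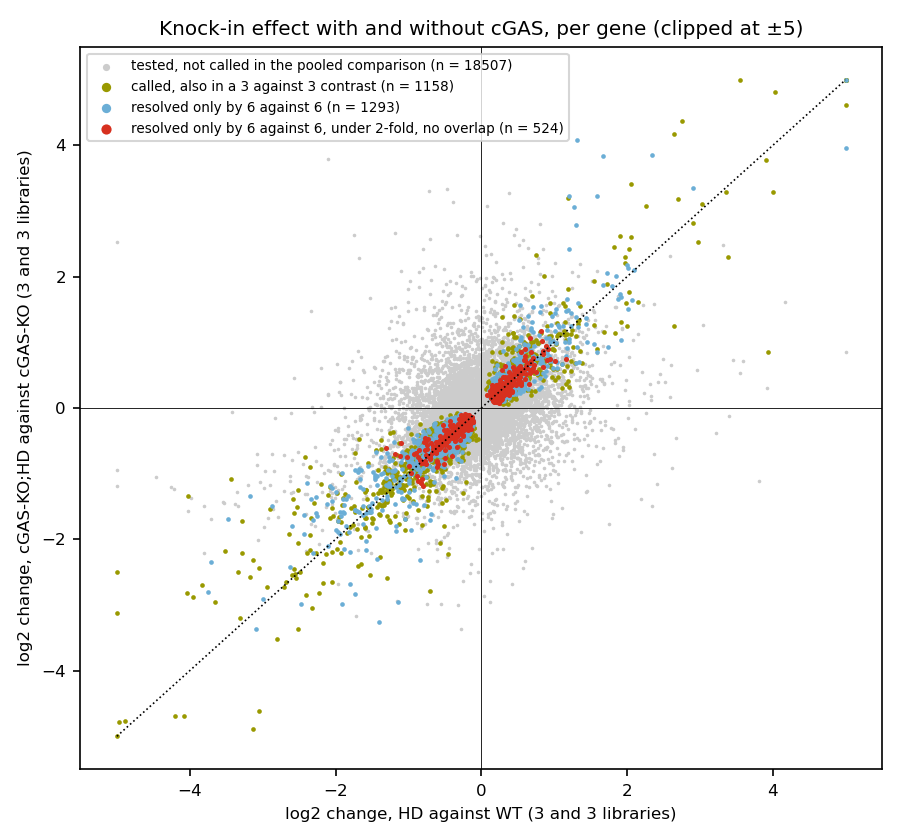
Log2 change in HD against WT (horizontal axis) and in cGAS-KO;HD against cGAS-KO (vertical axis) for each tested gene, clipped at 5 either way, with the line of equal change dotted. The 524 genes resolved only by pooling, changed by under 2-fold and without overlap between the libraries lie along that line near the origin, in the lower left and upper right. They were chosen from the values plotted.

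Of the 1817 genes resolved only by pooling, 1626 (7.57% of tested genes) changed by under 2-fold. In 524 of those (2.44%) the CPM values of the 6 knock-in libraries and the 6 others did not overlap, 308 (1.43%) higher and 216 (1.01%) lower in knock-in striatum. Over all tested genes 1598 (7.44%) showed no overlap, and 81 of them were not called. The 524 genes changed by a median of 0.31 on the absolute log2 scale, 0.26 for those higher and 0.40 for those lower. Their median level was 33.2 CPM, beside 8.92 CPM over all tested genes. Each contrast alone gave an unadjusted p under 0.05 for 407 of the 524, and 117 reached it in 1 contrast only. The change was smaller in cGAS-KO;HD against cGAS-KO than in HD against WT for 279 of them (53.2%). The 524 were chosen from these same values. Their lack of overlap and their agreement between the contrasts therefore describe the choice and are not independent evidence, also for the genes named below.

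Which genes count as resolved only by pooling depends on the libraries, the test and the threshold. With 1 library left out at a time, 332 of the 524 (63.4%) stayed called in all 12 fits, beside 1824 (61.3%) of all 2975 pooled calls. The single contrasts called 139 of them without WT 1, 254 without cGAS-KO 3 and 364 without both, where 475 were still called by pooling. With no library left out, the single contrasts called 346 of the 524 with DESeq2, and 296 with edgeR at an adjusted p under 0.1. The pooled fit called 195 of them (37.2%) with the cortical markers as a covariate, 463 with the replicate number as a block and 485 with Xist as a covariate. The cortical covariate, a mean log2(CPM+1), was itself 3.28 to 4.08 in knock-in libraries and 3.42 to 5.26 in those without. A call lost with it therefore cannot be assigned to cortical RNA, as covariate and knock-in are partly mixed. The part of cortical RNA in these changes was not tested beyond that covariate.

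**Figure D3:**
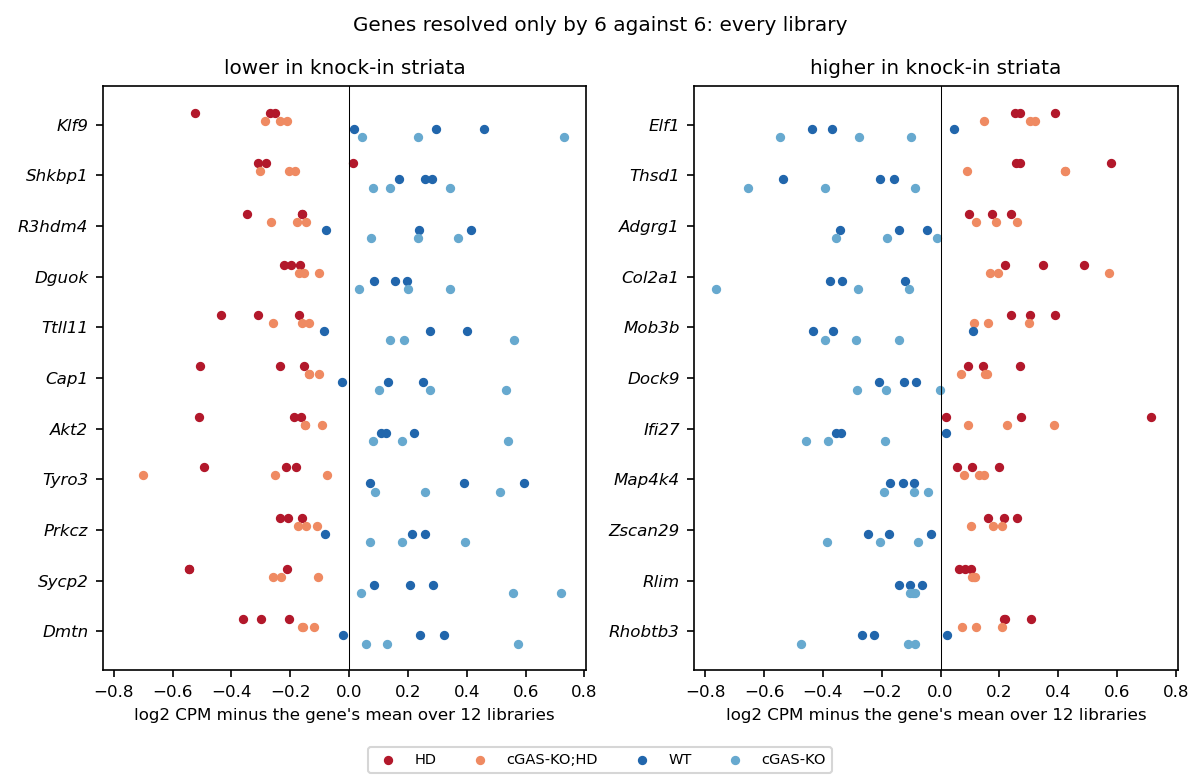
Every library for 11 of the 12 genes with the smallest p in each direction among those resolved only by pooling, under 2-fold and without overlap, as log2 CPM minus the gene's mean over 12 libraries (horizontal axis). In each gene the dots of the HD and cGAS-KO;HD libraries lie on one side of those of the WT and cGAS-KO libraries, as the choice of genes requires. WT 1 comes closest to the knock-in libraries in several.

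The lowest p among the 216 lower genes belonged to Klf9, a Krüppel-like transcription factor induced by glucocorticoids and thyroid hormone in neurons. It had 166, 168 and 139 CPM in HD and 173, 170.0 and 164 CPM in cGAS-KO;HD, against 202, 246 and 275 CPM in WT and 235, 206 and 332 CPM in cGAS-KO. Every knock-in library lay below every other one, and WT 1 and cGAS-KO 2 were the closest. The pooled log2 change was -0.61 ± 0.11 (adjusted p = 0.00185), while the adjusted p was 0.0503 in HD against WT and 0.0523 in cGAS-KO;HD against cGAS-KO.

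Of the other lower genes named, Akt2, a kinase downstream of insulin and growth factor receptors, had a lowest, median and highest level of 57.9, 74.0 and 77.3 CPM in knock-in libraries and 87.3, 91.8 and 120.1 CPM in those without (log2 change -0.42 ± 0.08). Prkcz, an atypical protein kinase C, had 191, 200.3 and 208 CPM, against 213, 258 and 295 CPM (-0.35 ± 0.07). Tyro3, a receptor tyrosine kinase of the TAM family, had 74.0, 102 and 114 CPM, against 126, 151 and 182 CPM (-0.64 ± 0.12). Shkbp1, a binding partner of the adaptor SH3KBP1, fell by 0.42 on the log2 scale. None of these genes overlapped between the knock-in and the other libraries, as the rule that chose them requires.

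Cap1, which recycles actin monomers, had 167, 215 and 222 CPM in knock-in libraries and 234, 272 and 344 CPM in those without (-0.43 ± 0.08). Dmtn, the actin-bundling protein dematin, had 194, 219 and 229 CPM, against 245, 283 and 369.8 CPM (-0.45 ± 0.08). Ttll11, which adds glutamate chains to tubulin, changed by -0.50 ± 0.09. In these 3 genes cGAS-KO 3 was the highest library.

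Dguok, the mitochondrial kinase that supplies purine nucleotides for mitochondrial DNA, varied little between libraries. It had 14.0, 13.5 and 13.7 CPM in HD and 14.6, 14.1 and 13.9 CPM in cGAS-KO;HD, against 16.6, 17.5 and 18.0 CPM in WT and 18.0, 16.0 and 19.9 CPM in cGAS-KO. The log2 change was -0.34 ± 0.06 (adjusted p = 0.00229). R3hdm4, a nuclear protein with an R3H domain, and Sycp2, a component of the meiotic synaptonemal complex, changed by -0.43 ± 0.08 and -0.64 ± 0.12. Sycp2 was rare, at 2.66 to 3.60 CPM in knock-in libraries and 3.99 to 6.39 CPM in those without. All 12 lower genes kept their call without any 1 library, and with Xist, the replicate number or the cortical markers as a covariate, as did the 12 higher ones below.

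Among the 308 higher genes Elf1, a transcription factor of the ETS family best known in blood cells, had the smallest p. Its levels were 12.5, 11.5 and 11.3 CPM in HD and 11.7, 11.9 and 10.5 CPM in cGAS-KO;HD, against 9.82, 7.02 and 7.36 CPM in WT and 7.84, 6.52 and 8.87 CPM in cGAS-KO. WT 1 was the closest of the libraries without the knock-in, and the log2 change was 0.55 ± 0.10 (adjusted p = 0.00210).

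The smallest change among the 12 higher genes was that of Rlim, an X-linked ubiquitin ligase. It had 88.6, 87.5 and 86.3 CPM in HD and 89.5, 89.4 and 88.9 CPM in cGAS-KO;HD, against 76.8, 74.8 and 79.0 CPM in WT and 76.8, 77.3 and 77.7 CPM in cGAS-KO. The standard deviation was 1.26 CPM over the 6 knock-in libraries and 1.40 CPM over the 6 others, so a log2 change of 0.20 ± 0.04 passed the test (adjusted p = 0.00329). Rlim is known in mouse for its part in X inactivation. Xist-high libraries were more frequent among the knock-in mice, and with Xist as a covariate its log2 change was 0.19 (adjusted p = 0.0092).

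Of the other higher genes named, Adgrg1, an adhesion G protein-coupled receptor also known as GPR56, had a lowest, median and highest level of 109, 116 and 122 CPM in knock-in libraries and 79.6, 91.0 and 101 CPM in those without (0.36 ± 0.06). Thsd1, a thrombospondin-domain protein of endothelium, and Col2a1, the fibrillar collagen of cartilage, changed by 0.67 ± 0.12 and 0.66 ± 0.12 at levels under 8 CPM.

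Dock9, an exchange factor for Cdc42, had 182, 192 and 209 CPM in knock-in libraries and 143, 156 and 174 CPM in those without (0.29 ± 0.06). Map4k4, a kinase upstream of JNK, had 177, 186 and 196 CPM, against 149, 158 and 166 CPM (0.24 ± 0.05). Mob3b, a relative of the Hippo pathway's MOB adaptors, Rhobtb3, an atypical GTPase relative with ATPase activity, and Zscan29, a zinc finger protein, changed by 0.49 ± 0.09, 0.37 ± 0.07 and 0.37 ± 0.07. The last of the named higher genes, Ifi27, belongs to the interferon genes below.

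Around the threshold, the genes of at least 1 CPM just inside were Ets2, Maob and Hist1h4i, and those just outside were 2810025M15Rik, Chst14 and Ppp1r12c. Ets2, an ETS transcription factor, changed by -0.32 ± 0.10 (called in 4 of the 12 fits with 1 library left out) and Maob, a monoamine oxidase, by 0.41 ± 0.13 (called in 2). Chst14, a dermatan sulfate sulfotransferase, changed by 0.44 ± 0.14 and Ppp1r12c, a myosin phosphatase subunit, by -0.22 ± 0.07. Chst14 and 2810025M15Rik were among the uncalled genes whose libraries did not overlap.

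Gene groups were then counted over the whole pooled comparison, beside 5.98% of all tested genes called higher, 7.87% called lower and a median log2 change of 0.01 over all tested genes. For calls resolved only by pooling the shares over all tested genes were 4.02% higher and 4.44% lower. The lists were written with earlier results of these data known, so their direction is not independent evidence, and no list was tested as a set. Of 196 called genes named by rule, 166 stayed called without any 1 library. Below, where a named call was lost, the number of the 12 fits that kept it is given, and where the cortical markers as a covariate moved a list's count by more than 1.5 times, that count is given as with the cortical covariate. The values of that covariate ran lower in knock-in libraries, so counts taken with it do not separate cortical RNA from the knock-in. Fewer cells of a type and less RNA per cell cannot be told apart in tissue RNA.

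**Figure D4:**
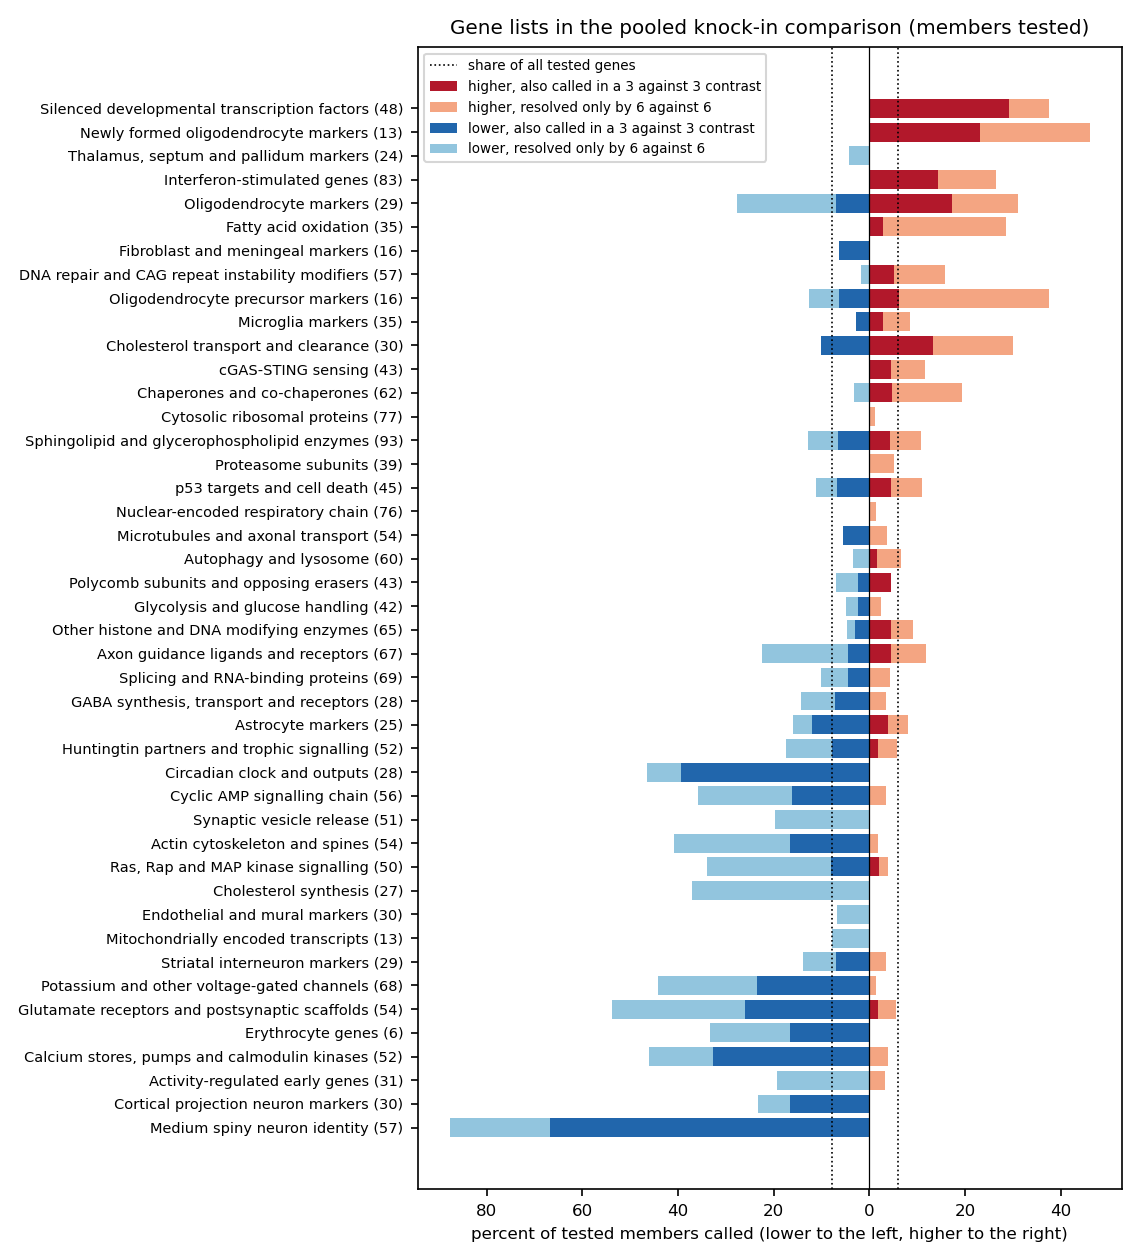
Percent of each list's tested members (number in brackets) called lower, to the left, and higher, to the right, in knock-in striatum, with dark bars for genes also called in a 3 against 3 contrast and light bars for genes resolved only by pooling; dotted lines mark 7.87% and 5.98% of all tested genes. Lists of synaptic vesicle release and cholesterol synthesis have light bars only, and the medium spiny neuron list is mostly dark.

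Medium spiny neuron identity genes were lower almost throughout. Of 57 tested, 50 fell and none rose, with a median log2 change of -0.93, and 12 of the 50 were resolved only by pooling. Those 12 had smaller changes than the classical losses, such as Tmem158, a membrane protein of Ras-induced senescence, at 43.3 ± 8.21 CPM in knock-in libraries and 64.6 ± 8.76 CPM in those without (mean ± SD, n = 6 each, log2 change -0.58 ± 0.11). Dlx6, a homeobox factor of striatal development, had 24.2 ± 4.91 CPM, against 35.8 ± 3.36 CPM (-0.57 ± 0.11). The kinase Dclk3 changed by -0.53 ± 0.10. Ryr1, a calcium release channel, and Ptprv, a receptor phosphatase, were already called in both single contrasts and changed by -2.23 ± 0.09 and -2.51 ± 0.11. Among the 12, the retinoic acid receptor Rarb at -0.64 ± 0.13, the neuropeptide gene Tac1 at -0.62 ± 0.15, the striatal G protein subunit Gnal at -0.39 ± 0.09 and the kappa opioid receptor Oprk1 at -0.44 ± 0.10 were named once their values had been seen.

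The cyclic AMP chain downstream of dopamine and adenosine receptors had 20 of 56 members lower and 2 higher, 11 and 2 of them resolved only by pooling. With the cortical covariate 11 were lower and 1 higher, and the higher count was 0 in most fits with 1 library left out. Akap5, which anchors protein kinase A and calcineurin at the synapse, had 175 ± 40.7 CPM in knock-in libraries and 290.0 ± 47.3 CPM in those without (-0.72 ± 0.15). Akap9 changed by -0.26 ± 0.06 and the phosphodiesterase Pde8a by -0.35 ± 0.08. The phosphatase subunits Ppp1ca and Ppp3ca were called in both single contrasts, at -0.51 ± 0.06 and -0.94 ± 0.12.

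Of 68 genes of potassium and other voltage-gated channels, 30 fell and 1 rose, and 14 of the lower ones were resolved only by pooling. Kcnip3, a calcium-binding partner of Kv4 channels, had 72.2 ± 3.51 CPM in knock-in libraries and 106 ± 20.8 CPM in those without (-0.56 ± 0.11), without overlap. The inward rectifiers Kcnj4 and Kcnj2, which set the resting potential of medium spiny neurons, changed by -1.09 ± 0.19 and -0.58 ± 0.12. Kcnh4 and Kcnip2 were called in both single contrasts, at -1.58 ± 0.14 and -1.24 ± 0.13. With the cortical covariate 17 members were lower and 0 higher.

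Glutamate receptors and postsynaptic scaffolds had 29 of 54 members lower and 3 higher, and 15 and 2 of these were resolved only by pooling (16 lower with the cortical covariate). Homer1, a scaffold of metabotropic receptors, changed by -0.96 ± 0.19. Grin3a, an NMDA receptor subunit that lowers calcium entry, went the other way, at 75.2 ± 6.65 CPM in knock-in libraries and 59.5 ± 5.28 CPM in those without (0.34 ± 0.07), and the libraries did not overlap. The NMDA subunit Grin2b, named after its values were seen, had 269 ± 11.8 CPM, against 386 ± 87.7 CPM (-0.52 ± 0.11). Camk2b and Dlgap3, called in both single contrasts, changed by -0.63 ± 0.07 and -0.59 ± 0.08.

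Synaptic vesicle release was reached by pooling alone. Of 51 tested members 10 fell and none rose, and none of the 51 was called in a single contrast. Sv2c, a vesicle protein enriched in the basal ganglia, had 97.6 ± 16.3 CPM in knock-in libraries and 139 ± 16.8 CPM in those without (-0.51 ± 0.10). The active zone protein Erc2 had 112 ± 14.1 CPM, against 175 ± 45.1 CPM (-0.64 ± 0.14), and the complexin Cplx3 changed by -1.82 ± 0.35. The priming factor Unc13a at -0.40 ± 0.09 and Napa, the fusion cofactor alpha-SNAP, at -0.21 ± 0.06 (called in 10 of 12 fits) were named once their values had been seen, and of the 10 genes Napa alone had no overlap. The count was 4 without WT 2 or WT 3 and 16 without WT 1, and it was 5 with the cortical covariate. Cortical markers ran highest in WT 2, WT 3 and cGAS-KO 3, with summed levels of 2369, 2791 and 3156 CPM. The part of cortical RNA in these counts was not tested beyond that covariate.

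Calcium stores, pumps and calmodulin kinases had 24 of 52 members lower and 2 higher (none higher with the cortical covariate), 7 and 2 of them resolved only by pooling. Plcb1, a phospholipase that couples receptors to calcium release, changed by -0.74 ± 0.15 and Camkk1 by -0.49 ± 0.11, while Micu2, a gatekeeper of the mitochondrial calcium uniporter, changed by 0.27 ± 0.06. Ras, Rap and MAP kinase genes had 17 of 50 lower and 2 higher, with 13 and 1 resolved only by pooling. Sipa1l1, a Rap GTPase activator of spines, changed by -0.71 ± 0.14, against 0.23 ± 0.05 for neurofibromin, Nf1, which turns Ras off. The lower count of this list was 6 without cGAS-KO;HD 1 or WT 3 and 21 without WT 1 or cGAS-KO 2, and it was 3 with the cortical covariate.

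Actin and spine genes had 22 of 54 members lower and 1 higher, 13 and 1 of them resolved only by pooling. With the cortical covariate 14 were lower and 0 higher, and the higher count was 0 in most fits with 1 library left out and 3 without WT 1. Arhgap32, a GTPase-activating protein of the spine, had 249 ± 22.6 CPM in knock-in libraries and 383 ± 87.0 CPM in those without (-0.62 ± 0.12), and the exchange factor Kalrn changed by -0.88 ± 0.17. Axon guidance genes went both ways, with 8 of 67 higher and 15 lower, the lower count being 8 without WT 2. With the cortical covariate the counts were 4 higher and 6 lower. The semaphorin Sema3c rose by 0.20 ± 0.05 and the ephrin Efna3 fell by 0.34 on the log2 scale. Among microtubule and transport genes 2 of 54 were higher (0 with the cortical covariate) and 3 lower (7 without WT 1), and the developmental kinesin Kif26b and Dpysl3, a growth cone protein, were the higher ones, at 0.34 ± 0.08 and 0.47 ± 0.11. GABA synthesis and receptor genes had 1 of 28 higher (3 without WT 1) and 4 lower (2 without WT 3 or cGAS-KO;HD 3, 1 with the cortical covariate). Slc12a2, the chloride importer NKCC1, had 154 to 193 CPM in knock-in libraries and 100.3 to 156 CPM in those without (0.37 ± 0.09).

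Huntingtin partners and trophic signalling genes had 9 of 52 members lower and 3 higher (1 higher with the cortical covariate). Sort1, the sorting receptor for BDNF precursors, had 304 ± 12.2 CPM in knock-in libraries and 403 ± 56.5 CPM in those without (-0.41 ± 0.08), with no overlap. Prpf40b, a huntingtin-binding splicing protein, changed by -0.21 ± 0.05, and Optn, an autophagy receptor that binds huntingtin, by 0.35 ± 0.08. Fgf1 and Igfbp4 were called in both single contrasts, at 0.62 ± 0.08 and -0.94 ± 0.13. Splicing and RNA-binding protein genes had 7 of 69 lower (4 with the cortical covariate) and 3 higher (1 without HD 3, cGAS-KO;HD 3 or WT 3), with Celf2 and Celf1 at -0.55 ± 0.12 and -0.30 ± 0.07 and Fxr1 at 0.18 ± 0.04.

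In fatty acid oxidation, which burns acyl chains in mitochondria and peroxisomes, 10 of 35 members rose and none fell, with a median log2 change of 0.18 over the list. Of the 10, 9 were resolved only by pooling. Hadha, the alpha subunit of the mitochondrial trifunctional protein, had 97.3, 98.9 and 93.8 CPM in HD and 91.6, 100.3 and 101 CPM in cGAS-KO;HD, against 91.5, 69.4 and 77.1 CPM in WT and 77.5, 80.6 and 70.9 CPM in cGAS-KO. WT 1 came close to the lowest knock-in library, and the log2 change was 0.32 ± 0.06 (adjusted p = 0.00433). Eci2, an enoyl-CoA isomerase, had 39.4 ± 1.46 CPM in knock-in libraries and 33.4 ± 1.97 CPM in those without (0.24 ± 0.05). The peroxisomal enzyme Hsd17b4 changed by 0.27 ± 0.06. Acot1, an acyl-CoA thioesterase, was called in HD against WT as well, with 11.6 ± 1.09 CPM, against 7.14 ± 1.16 CPM (0.70 ± 0.11).

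The other 6 were named once their values had been seen: the dehydrogenases Acadm, Acadl, Acadsb and Hadh, the reductase Decr1 and the electron carrier oxidoreductase Etfdh, at 0.18 to 0.25 on the log2 scale. Decr1 kept its call in all 12 fits with 1 library left out, Acadsb in 8, and the other 4 in 2 to 6. The count of the list was 5 without HD 2, WT 2 or WT 3 and 13 without WT 1, and it was 13 without WT 1 and cGAS-KO 3, 7 with Xist as a covariate and 2 with the cortical covariate. The summed level of the list was 1464 to 1750 CPM in knock-in libraries and 1217 to 1629 CPM in those without, with WT 1 at 1629 CPM.

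Of 27 tested genes of cholesterol synthesis and its regulators, 10 fell and none rose, all 10 resolved only by pooling and none called in a single contrast. The median log2 change of the list was -0.21. Msmo1, a sterol methyl oxidase, had 63.7 ± 4.63 CPM in knock-in libraries and 82.8 ± 14.1 CPM in those without (-0.38 ± 0.09, adjusted p = 0.0106). Fdft1, squalene synthase, had 69.7 ± 3.82 CPM, against 82.5 ± 7.06 CPM (-0.24 ± 0.06). Hmgcs1, which makes HMG-CoA, had 200.0, 202 and 214 CPM in HD and 170.0, 203 and 224 CPM in cGAS-KO;HD, against 217, 249 and 258 CPM in WT and 239.6, 226 and 284 CPM in cGAS-KO. Its knock-in and other libraries overlapped (log2 change -0.28 ± 0.08, adjusted p = 0.0247), and its call was lost without cGAS-KO;HD 1, WT 2 or WT 3.

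Of the remaining 7, 4 were named once their values had been seen. Srebf2, the transcription factor that drives the pathway, changed by -0.22 ± 0.06 and Dhcr7, the last enzyme, by -0.25 ± 0.08. Idi1, an isomerase of isoprenoid synthesis, changed by -0.25 ± 0.07 and Acat2, an acetyl-CoA acetyltransferase, by -0.20 ± 0.06. Of the 10, Dhcr7 alone showed no overlap. The count was 2 without cGAS-KO;HD 1, WT 2 or WT 3 and 13 without WT 1, and each of these 7 kept its call in 3 to 8 of the 12 fits. It was 12 without WT 1 and cGAS-KO 3, 8 with Xist as a covariate and none with the cortical covariate. The summed level of the list was 1189 to 1490.4 CPM in knock-in libraries and 1445 to 1561 CPM in those without, where cGAS-KO;HD 3 lay above WT 1 and cGAS-KO 3.

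**Figure D5:**
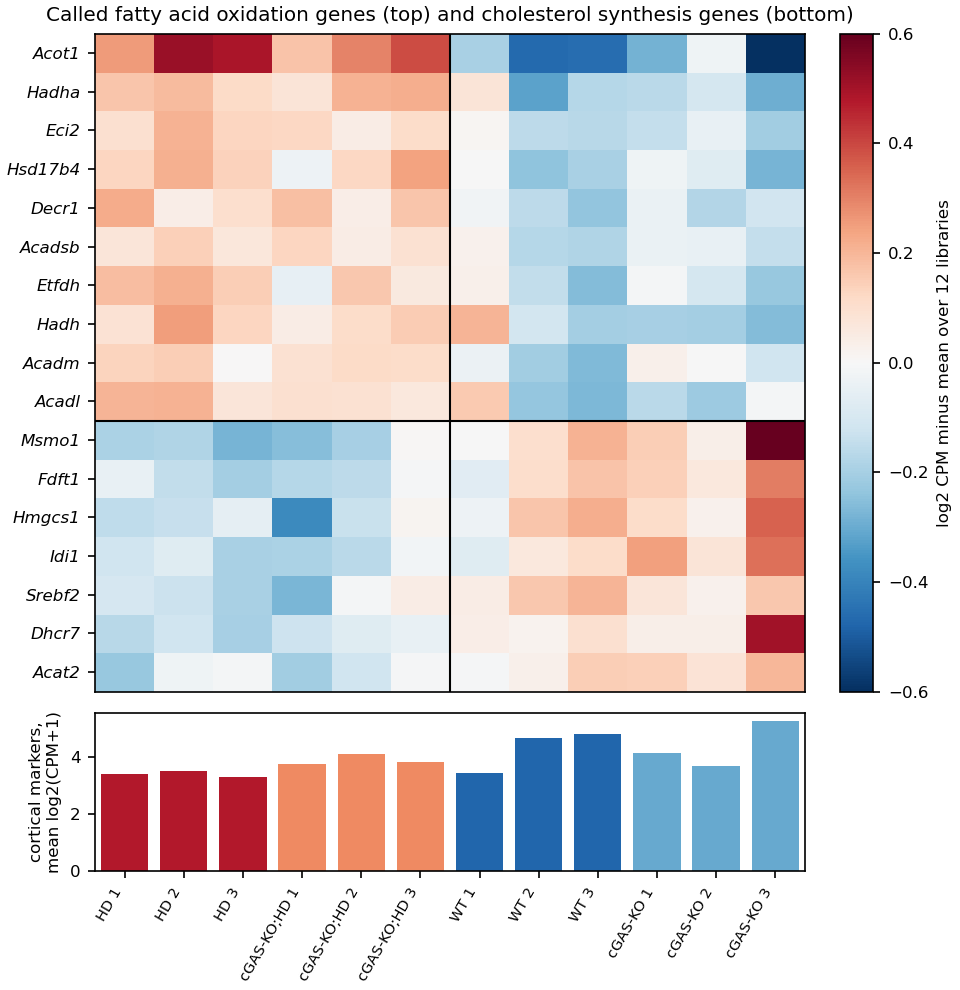
Log2 CPM minus the gene's mean over 12 libraries for called genes of fatty acid oxidation (top, 10 genes) and cholesterol synthesis (bottom, 7 of the 10), 1 column per library with the knock-in libraries on the left, above bars of the mean log2(CPM+1) of cortical projection neuron markers in the same libraries. WT 1, the first column right of the divide, has paler or opposite colours to WT 2 and WT 3 in most genes and a low bar, and cGAS-KO 3 has the tallest bar and the deepest colours in Acot1 and Msmo1.

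Cholesterol transport and clearance had 9 of 30 members higher (4 with the cortical covariate) and 3 lower. Abca2, a lipid transporter of oligodendrocytes, had 431 ± 32.2 CPM in knock-in libraries and 352 ± 25.1 CPM in those without (0.29 ± 0.06). The lysosomal membrane protein Scarb2 had 205 ± 10.4 CPM, against 175 ± 9.05 CPM (0.23 ± 0.05), and both showed no overlap. Osbpl5, an oxysterol-binding protein, changed by 0.49 ± 0.11. Cyp46a1, which hydroxylates cholesterol for export from neurons, changed by -0.66 ± 0.05 and was already called in each contrast. Sphingolipid and glycerophospholipid enzymes went both ways, with 10 of 93 higher (6 without HD 2, cGAS-KO;HD 2 or cGAS-KO;HD 3) and 12 lower, and 4 and 7 with the cortical covariate. Dagla, which makes the endocannabinoid 2-arachidonoylglycerol, changed by -0.41 ± 0.09, the ganglioside synthase St3gal5 by -0.41 ± 0.10 and the ceramide synthase Cers2 by 0.25 ± 0.05.

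Of 62 chaperones and co-chaperones tested, 12 rose and 2 fell, with 9 and 2 resolved only by pooling (6 and 1 with the cortical covariate). Ahsa1, the activator of the HSP90 ATPase, had 84.9 ± 4.75 CPM in knock-in libraries and 72.5 ± 3.61 CPM in those without (0.23 ± 0.05, no overlap). Hspa13 changed by 0.25 ± 0.05, and Cct3, a subunit of the cytosolic chaperonin, by 0.29 ± 0.06. Other subunits of the same complex, Cct4, Cct5 and Cct6a, were also called and were named once their values had been seen, at 0.27 ± 0.07, 0.19 ± 0.06 and 0.18 ± 0.04, kept in 6, 3 and 12 of the 12 fits. Fkbp5, a co-chaperone of steroid receptors, went down, at 23.3 ± 1.55 CPM, against 30.1 ± 3.22 CPM (-0.37 ± 0.08). Without HD 2 the higher count was 5. Proteasome subunits had 2 of 39 members higher, Psmd1 (kept in 8 of 12 fits) and Psmd10 (in 4), and 0 with the cortical covariate. Autophagy and lysosome genes had 4 of 60 higher (2 at the least and, without WT 1, 7 at the most) and 2 lower (5 without WT 1, 0 without WT 3). With the cortical covariate none was called either way.

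DNA repair genes, several of which modify the age at onset of Huntington's disease in people, had 9 of 57 members higher and 1 lower (0 lower with the cortical covariate), 6 and 1 resolved only by pooling. Ercc3, a helicase of transcription factor IIH, had 33.0 ± 1.57 CPM in knock-in libraries and 28.7 ± 1.01 CPM in those without (0.20 ± 0.05), and Xpa, the damage verifier of nucleotide excision repair, had 13.1 ± 1.34 CPM, against 10.7 ± 0.545 CPM (0.29 ± 0.07). Neither overlapped. Ercc6, of transcription-coupled repair, changed by -0.27 ± 0.07. Brca1 was called in HD against WT and changed by 0.80 ± 0.14. The higher count was 4 without HD 1.

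Interferon-stimulated genes rose without exception among those called, 22 of 83 tested and none lower, and 10 of the 22 were resolved only by pooling. Ifi27, a small interferon-induced membrane protein, had 21.6, 35.0 and 25.8 CPM in HD and 25.0, 27.8 and 22.8 CPM in cGAS-KO;HD, against 21.6, 16.7 and 16.9 CPM in WT and 15.5, 18.7 and 16.3 CPM in cGAS-KO. The closest pair was HD 1 and WT 1, and the pooled log2 change was 0.58 ± 0.11 (adjusted p = 0.00315), with 0.58 in each single contrast. Irf9, the DNA-binding subunit of the interferon-activated complex ISGF3, had 15.2 ± 0.819 CPM in knock-in libraries and 11.8 ± 1.23 CPM in those without (0.36 ± 0.08). Irf7, which amplifies interferon transcription, had 3.01 ± 0.890 CPM, against 1.46 ± 0.361 CPM (1.05 ± 0.22). Eif2ak2 and Parp12, called in both single contrasts, changed by 0.75 ± 0.09 and 0.52 ± 0.07. The count was 17 to 35 when 1 library was left out, 35 without WT 1, and 45 without WT 1 and cGAS-KO 3. WT 1 had a summed level of 1349 CPM for the list, inside the knock-in range of 1316 to 1431 CPM, while the other 5 libraries without the knock-in had 1053 to 1146 CPM. Microglial markers were also highest in WT 1, at 1631 CPM summed, against 956.5 to 1148 CPM in the other libraries without the knock-in and 1221 to 1404 CPM in the knock-in ones. The part of microglia in the interferon count was not tested.

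The promoters were searched for letters of known response elements, in 5 pairs of a list and a motif. The letters GAAA, any 2 bases and GAAA again, on either strand, the core of the interferon-stimulated response element, stand within 250 bases upstream of the start in 21 of 64 list members with a promoter in RefSeq, and in 433 of all 13634 genes with one (3.18%). Of the 15 called members with a promoter, 4 hold them, no larger a share than in the whole list, and 2 of these were resolved only by pooling. The E-box CACGTG stands in 5 of 23 clock members, 4 of the 11 called, and in 9.07% of all genes with a promoter. The D-box, TTATG followed by TAA, stands in 2 of those 23, 1 of the 11 called, and in 0.719% of all. The heat shock element, GAA, TTC and GAA each 2 bases apart, stands in 3 of 51 chaperones, 0 of the 10 called, and in 0.455% of all. The cAMP response element, TGAC followed by GTCA, stands in 4 of 24 early genes, 1 of the 6 called, and in 2.73% of all. The stretches of 60 bases around the first match are printed for the 4 called interferon-stimulated genes, as the sequences behind that count. They come from RefSeq on GRCm38.p6 and read 5′ to 3′ along the gene's own strand. The letters of the first match are in capitals, and in Irgm1 another match overlaps it and is partly in lower case. A match is a description of the sequence and not a site of binding.
Irgm1 (chr11:48871421-48871480, minus strand): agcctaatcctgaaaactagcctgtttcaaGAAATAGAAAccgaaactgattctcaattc
Ifit3b (chr19:34607744-34607803, plus strand): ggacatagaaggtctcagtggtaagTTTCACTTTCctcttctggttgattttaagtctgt
Igtp (chr11:58199496-58199555, plus strand): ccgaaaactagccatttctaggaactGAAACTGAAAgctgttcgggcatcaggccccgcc
Ifit3 (chr19:34583348-34583407, plus strand): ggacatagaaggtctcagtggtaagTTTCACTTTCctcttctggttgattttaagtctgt

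Irgm1, an immunity-related GTPase, was resolved only by pooling, with 12.7 ± 1.25 CPM in knock-in libraries and 9.21 ± 1.37 CPM in those without (0.47 ± 0.11, no overlap). Igtp, of the same family, had 5.15 ± 0.347 CPM, against 3.53 ± 0.277 CPM (0.54 ± 0.09). Ifit3 and Ifit3b, antiviral proteins that bind foreign RNA, changed by 0.45 ± 0.13 and 0.39 ± 0.12, kept in 4 and 3 of the 12 fits. The printed stretches of Ifit3 and Ifit3b are identical letter for letter, so reads of these near-identical copies may have been split by the counting, and their values are uncertain. These 4 genes were named for their promoters after their values were seen. In the cGAS-STING list 5 of 43 members rose (3 with the cortical covariate and in most fits with 1 library left out) and none fell. Traf6 and Mavs, adaptors of innate signalling, and Nfkb1 were resolved only by pooling, at 0.27 ± 0.06, 0.30 ± 0.09 (kept in 2 of 12 fits) and 0.18 ± 0.06 (in 1). Trim56 and Enpp1, called in both single contrasts, changed by 0.74 ± 0.10 and 0.54 ± 0.08.

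Oligodendrocyte genes split within the lineage. Of 29 markers of mature cells 9 rose and 8 fell, with 4 and 6 resolved only by pooling. Myelin structural genes were among those that fell. Mobp had 1358, 1501 and 1224 CPM in HD and 1197, 1245 and 1274 CPM in cGAS-KO;HD, against 2269, 1573 and 1688 CPM in WT and 1604, 1788 and 1535 CPM in cGAS-KO. WT 1 was far above the other libraries, and the log2 change was -0.42 ± 0.09 (adjusted p = 0.00544). Tspan2, a tetraspanin of myelin, had 148 ± 10.9 CPM in knock-in libraries and 184 ± 15.1 CPM in those without (-0.31 ± 0.07). Ermn, a cytoskeletal protein of myelinating cells, went the other way, with 202 ± 11.3 CPM, against 168 ± 10.2 CPM (0.26 ± 0.05). Anln and Anxa5, called in both single contrasts, changed by 0.60 ± 0.07 and 0.63 ± 0.10. The lineage factor Olig1, at 0.50 ± 0.11, was named once its values had been seen.

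Markers of newly formed oligodendrocytes rose in 6 of 13 cases and none fell. Bcas1 had 494 ± 31.9 CPM in knock-in libraries and 393 ± 67.4 CPM in those without (0.33 ± 0.09), and WT 1, at 528 CPM, overlapped the knock-in range. Itpr2 and Tmem163 changed by 0.22 ± 0.06 and 0.52 ± 0.14. The calls of Bcas1, Itpr2 and Tmem163 were kept in 6, 3 and 7 of the 12 fits. Enpp6, called in both single contrasts, changed by 1.18 ± 0.07. Precursor markers had 6 of 16 higher (3 without WT 3) and 2 lower, and 3 and 1 with the cortical covariate. Traf4 had 10.1 ± 0.883 CPM, against 7.65 ± 0.577 CPM (0.39 ± 0.08), and Sox6, which interneurons also express, had 33.6 ± 1.86 CPM, against 29.4 ± 0.988 CPM (0.19 ± 0.05, kept in 8 of 12 fits). Neither overlapped. The newly formed count was 3 without WT 2, WT 3 or cGAS-KO 1 and 8 without WT 1, and 3 with the cortical covariate. Astrocyte markers had 2 of 25 higher and 4 lower (1 and 7 with the cortical covariate), microglia 3 of 35 higher (1 with the cortical covariate, 7 without WT 1, none without HD 2, cGAS-KO;HD 2, WT 3 or cGAS-KO 1) and 1 lower, and endothelial and mural cells 2 of 30 lower (4 with the cortical covariate and without cGAS-KO;HD 1 or cGAS-KO;HD 2). Of 20 markers of choroid plexus and ependyma, edgeR, DESeq2 and limma-voom called 0, and 0 had an unadjusted p under 0.05 in edgeR, with the smallest p at Ak7 (0.32 ± 0.15). However, 18 of the 20 lay above 0, with a median log2 change of 0.23. Their summed level varied widely, from 635 to 3727 CPM in knock-in libraries and 489 to 3526.5 CPM in those without, so the absence of calls does not show equal content. Cortical projection neuron markers had 7 of 30 called lower (18 without cGAS-KO 2, 19 with DESeq2), but 27 of the 30 lay below 0, with a median log2 change of -0.86, and 23 had an unadjusted p under 0.05. That median was farther from 0 than those of newly formed oligodendrocytes, at 0.33, and of precursors, at 0.084. Thalamus, septum and pallidum markers had 21 of 24 above 0 and 3 below, with a median of 0.32. Of these 1 was called lower (0 to 2 over all fits). Their summed level was 845 to 2125 CPM in knock-in libraries and 477 to 1458 CPM in those without. Of the 30 endothelial and mural markers 26 lay below 0, with a median of -0.22. The part of tissue content in other results was not tested. Striatal interneuron markers had 4 of 29 lower (9 without cGAS-KO 2, 12 with DESeq2) and 1 higher (0 with the cortical covariate).

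Activity-regulated early genes were reached by pooling alone. Of 31 tested, 6 fell and 1 rose, and no member was called in a single contrast. Egr2 had 2.06, 1.49 and 0.569 CPM in HD and 0.743, 1.71 and 2.09 CPM in cGAS-KO;HD, against 1.51, 5.22 and 8.44 CPM in WT and 4.79, 6.66 and 8.78 CPM in cGAS-KO. WT 1 lay inside the knock-in range and the other 5 libraries without the knock-in above it (log2 change -2.02 ± 0.42, adjusted p = 0.00840). Egr3, another zinc finger factor induced by firing, had 52.4 ± 14.2 CPM in knock-in libraries and 99.9 ± 30.4 CPM in those without (-0.94 ± 0.23), and its call was lost without cGAS-KO 3. Each of the 7 called genes overlapped between the knock-in and the other libraries. The lower count was 15 without WT 1 and 3 without cGAS-KO;HD 1, WT 2, WT 3 or cGAS-KO 3, and it was none with the cortical covariate and 14 with DESeq2.

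The circadian clock and its outputs had 13 of 28 members lower and none higher, and 11 of the 13 were already called in a single contrast. Cry2, a repressor of the clock, and Bhlhe40, a repressor of clock outputs, were the 2 that pooling added, at 106 ± 6.33 CPM in knock-in libraries and 130.2 ± 12.3 CPM in those without (-0.29 ± 0.06) for Cry2, and 65.7 ± 3.84 CPM, against 89.3 ± 18.9 CPM (-0.44 ± 0.12, kept in 10 of 12 fits), for Bhlhe40. Dbp and Ciart changed by -0.83 ± 0.07 and -0.99 ± 0.09. As the labels name no hour of collection, its part in the clock genes was not tested.

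Developmental transcription factors that are silent in adult striatum had 18 of 48 tested members higher and none lower. The other 30 of the 78 had too few counts to test, and those tested passed the filter through the libraries in which they were high. Pooling added Irx5, Irx3, Nkx2-9 and, in 2 of the 12 fits, Sall4, which was named after its values were seen. The iroquois factor Irx5 had 1.48 to 3.06 CPM in knock-in libraries and 0.170 to 1.11 CPM in those without (1.80 ± 0.37). Lmx1b, called in both single contrasts, had 4.39 to 6.91 CPM, against 0.0339 to 0.267 CPM. Polycomb genes, whose complexes keep such factors silent, had 2 of 43 higher (4 with the cortical covariate) and 3 lower (5 without WT 1). Cbx8 rose by 0.81 ± 0.12, and Scmh1 and Bap1, both resolved only by pooling, fell by 0.27 and 0.20 on the log2 scale. Other histone and DNA modifying enzymes had 6 of 65 higher and 3 lower (6 without cGAS-KO 3), among them the acetyltransferase Kat2b, with 50.0 ± 3.14 CPM, against 39.1 ± 4.56 CPM (0.35 ± 0.08).

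Housekeeping lists had few calls. Cytosolic ribosomal proteins had 1 of 77 members higher, nuclear-encoded respiratory chain genes 1 of 76 higher, glycolysis 1 of 42 higher and 2 lower, and mitochondrially encoded transcripts 1 of 13 lower. All 13 mitochondrial transcripts, a sign of RNA quality, had a log2 change below 0, however, from -0.37 to -0.15 with a median of -0.27. Their summed level was 42041 to 72898 CPM in knock-in libraries and 46374 to 94490 CPM in those without, cGAS-KO 3 being the highest, and their part in other results was not tested. The called members were Rps15a (0.17 ± 0.05), Ndufb2 (0.21 ± 0.07), the kinase Pdk4 (0.29 ± 0.08) with the coactivator Ppargc1b (-0.33 ± 0.07) and the glycolytic regulator Pfkfb2 (-0.26 ± 0.08), and mt-Nd3 (-0.34 ± 0.08). The calls of Rps15a, Ndufb2, Pdk4 and Pfkfb2 were kept in 6, 2, 8 and 3 of the 12 fits. The list of p53 targets and cell death genes had 5 of 45 members each way (3 higher without HD 2 or cGAS-KO;HD 3, 3 each way with the cortical covariate). Not all of its members are p53 targets. The cell cycle inhibitors Cdkn1b and Cdkn1a changed by 0.27 ± 0.06 and -0.65 ± 0.16.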

How the data were processed

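RNA of striatal tissue from 12 mice was sequenced, 3 per group; per the labels' protocols it was extracted with TRIzol, selected for poly(A) and made into random-primed, strand-marking libraries. The authors deposited 1 table of raw counts per library. Their aligner, build, annotation, counter and strand setting were not given in the sources used here. Overlapping, antisense and near-identical genes may share counts. Of 55487 identifiers 55141 matched a GENCODE M21 symbol on GRCm38.

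Genes with at least 10 counts in at least 3 libraries (21482) were tested with edgeR 4.0.16 (R 4.3.3, limma 3.58.1, counts scaled by TMM factors to CPM, robust quasi-likelihood fit, Benjamini-Hochberg threshold 0.05) in a model of knock-in plus cGAS genotype. A fit of 4 groups gave each single contrast and the interaction. A standard error is the log2 change over the square root of F. Depth differed little between libraries, and its precision is that of the standard errors.

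Named genes are Htt, Cgas, the 12 with the smallest p in each direction among genes resolved only by pooling, under 2-fold, without overlap and of at least 1 CPM, up to 3 such-resolved and 2 other called members per list, the 3 on each side of the threshold, and interaction calls. The 46 lists and the rule were written with earlier results of these data known, and 2 further lists after the values were seen. The alternatives were DESeq2 1.42.0, limma-voom, other filters, size factors and thresholds, a replicate block, Xist or 27 cortical markers as covariate, and fits with libraries left out. The edgeR fits of the pooled comparison and the single contrasts were first tested on simulated counts, with the same dispersion for every gene and no shifts between libraries. The alternatives were not tested in that way. Some genes that this rule names are not reported here, in the text or the plots, and they remain in all counts.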

Additional observations from a re-analysis of the deposited data

Results flagged for a closer look

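In 404 groups of 6 libraries (the knock-in libraries and those without, for each named gene), 24 times the highest or lowest library stood apart from the others by Dixon's criterion, which chance alone does in about 1 of 20 groups. cGAS-KO 3 accounted for 8 of them, WT 1 for 7, HD 3 for 6, and HD 2, cGAS-KO;HD 1 and cGAS-KO;HD 3 for 1 each.

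HD 3 was the lowest knock-in library for Klf9 at 139 CPM, Cap1 at 167 CPM, Akt2 at 57.9 CPM and Efna3 at 27.7 CPM, and the highest for Dagla at 75.7 CPM and Irx5 at 3.06 CPM. The highest knock-in library was HD 2 for Shkbp1 at 11.8 CPM, cGAS-KO;HD 3 for Msmo1 at 72.5 CPM and cGAS-KO;HD 1 for Xpa at 15.7 CPM.

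Among libraries without the knock-in, WT 1 was the highest for Ctss at 127 CPM, Lmx1b at 0.267 CPM, Barx1 at 0.0149 CPM, Mavs at 13.6 CPM, Mobp at 2269 CPM and Bcas1 at 528 CPM, and the lowest for Prmt8 at 51.9 CPM. cGAS-KO 3 was the highest for Akt2 at 120.1 CPM, Msmo1 at 110.2 CPM, Cdkn1b at 58.0 CPM, Cdkn1a at 17.9 CPM, Cacng4 at 136 CPM and Sst at 233 CPM, and the lowest for Cbx8 at 5.05 CPM and Matn4 at 4.98 CPM.

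The interaction of knock-in and cGAS genotype was called for Mid1-ps1, where the log2 change in cGAS-KO;HD against cGAS-KO minus that in HD against WT was -3.08 (edgeR, fitted across all genes, adjusted p = 0.0167). No interaction was called without HD 1, HD 3, cGAS-KO;HD 1, cGAS-KO;HD 2, WT 2, WT 3 or cGAS-KO 1.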

How the results depend on the processing

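The pooled count of 2975 was 1771 with the cortical markers as covariate and 1406 at an adjusted p of 0.01, and 2038 to 3745 with 1 library left out. The count resolved only by pooling was 765 with that covariate, 1048 at 0.01, 887 without both WT 1 and cGAS-KO 3 and 1150 to 2240 with 1 left out. Its part under 2-fold was 683, 892, 779 and 1033 to 1911 in the same order. The part without overlap was 220 with DESeq2, 197 with that covariate, 284 at 0.1 and 411 to 801 with 1 left out.

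HD against WT gave 1798 with DESeq2, 256 at 0.01, 1542 at 0.1, 3660 without both libraries and 243 to 1902 with 1 left out. cGAS-KO;HD against cGAS-KO gave 1666, 280, 1472, 1849 and 339 to 1151 in that order, and 451 fitted on its own 6 libraries. Interaction calls were 3 with DESeq2, 0 with limma-voom, 0 at 1 CPM in 6 libraries and 0 to 1 with 1 left out. The change of Cgas, not called in any of them, reversed to -0.00426 without the cGAS covariate and ran from -0.078 without cGAS-KO 2 to 0.11 without WT 1, being below 0 also without cGAS-KO;HD 1 or cGAS-KO;HD 2. The cause of these moves was not tested.

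Libraries of the same number did not pair. Over 18 such pairs the correlation of deviations ran from -0.455 to 0.433, 2 exceeded 0.1, and 3 of 12 libraries correlated best with their own number. With the replicate block the pooled comparison called 2628 genes and HD against WT 506. At 3 libraries a group the standard errors limit single contrasts to changes of about 0.22 on the log2 scale or more.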

Other observations

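Genes that steroid hormones induce through the glucocorticoid receptor form a small group across the lists above. This list and the next were written after the values were seen. Of 23 tested, 6 were lower and 1 higher in knock-in striatum, and 4 and 1 of them were resolved only by pooling. The median log2 change of the list was -0.31 pooled, -0.43 in HD against WT and -0.02 in cGAS-KO;HD against cGAS-KO. In cGAS-KO;HD against cGAS-KO 8 of the 23 had an unadjusted edgeR p under 0.05 and 2 were called lower. In HD against WT these counts were 12 and 4. The median near 0 therefore does not show that the members stayed unchanged without cGAS, and the difference between the contrasts was not tested. The kinase Sgk1 changed by -0.69 ± 0.10, the clock gene Per1 by -0.74 ± 0.11 and the phosphatase Dusp1 by -0.69 ± 0.18 (called in 6 of the 12 fits with 1 library left out), beside Klf9, Fkbp5 and Cdkn1a. Pdk4, another gene the receptor induces, changed by 0.29 ± 0.08 (called in 8). The summed level of the list was 912.6 to 1075 CPM in the knock-in libraries and 1080.3 to 1288 CPM in those without.

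Cell division and DNA replication genes, which most brain cells no longer use for mitosis, went the other way. Of 65 tested, 17 were higher and 3 lower, 14 and 1 of them resolved only by pooling. Bub3, a mitotic checkpoint protein, had 80.9 ± 5.19 CPM in knock-in libraries and 68.5 ± 3.34 CPM in those without (SD, n = 6 each, log2 change 0.24 ± 0.05). Cks1b, a subunit of cyclin-dependent kinases, had 1.91 ± 0.194 CPM, against 1.18 ± 0.184 CPM, and Kif4, a mitotic kinesin, had 2.13 ± 0.366 CPM, against 1.19 ± 0.319 CPM. The cyclin Ccnd2 changed by -0.61 ± 0.13. The summed level was 908.4 to 945.7 CPM in the knock-in libraries and 800.3 to 861.9 CPM in those without, and the higher count was 11 to 16 with 1 library left out and 8 with the cortical markers as covariate.

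Genomic spans were compared for genes above 10 CPM that were resolved only by pooling, under 2-fold and without overlap. The median span was 39.7 kb for the 235 higher genes and 33.1 kb for the 150 lower ones. It was 28.8 kb for all 10458 tested genes above that floor, and the median levels were 48.6, 66.1 and 44.6 CPM in that order. Of all pooled calls 5.61% of the higher and 1.78% of the lower genes lay on chromosome X, beside 3.25% of tested genes, where Xist was high in 4 of the 6 knock-in libraries and 2 of the 6 without. The part of sex in that share was not tested. Among erythrocyte genes Hba-a2 and Hbb-bt were called lower of 6 tested, at -0.78 ± 0.24 and -0.65 ± 0.20 (in 3 and 4 of the 12 fits), and with Xist as a covariate 0 were called.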
